A study of Mus musculus with 2 samples.

Results

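The genes described here are 9 Wnt ligands (Wnt1, Wnt3, Wnt3a, Wnt4, Wnt5a, Wnt5b, Wnt6, Wnt7b and Wnt11), chosen by name as columns present in the deposited values of both libraries, out of 18131 genes measured. The files hold 17 Wnt ligand genes in all, and the other 8 are given with the rest of the pathway. Single cells were sequenced from E9.5 mouse embryos (C57BL/6), from the stretch of tissue between the otic placode and the fourth somite, where the cardiac neural crest arises. The KO library came from Prdm6f/f; Wnt1-Cre2; ZsGreen1 embryos and the WT library from Prdm6+/+; Wnt1-Cre2; ZsGreen1 embryos, so that both genotypes carried the Cre transgene and the ZsGreen1 reporter. Wnt1-Cre2 drives Cre from regulatory sequence of Wnt1 itself, and Cre deletes the floxed part of Prdm6, a histone methyltransferase-like repressor, in the neural crest and dorsal neural tube lineage, while other lineages keep it. Whether transcripts of the transgene add to the Wnt1 counts was not tested. The deposited values formed 1 library per genotype, their cells were not traced to embryos here, and no difference between the genotypes has a replicate check.

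Wnt ligands are secreted, lipid-modified glycoproteins that signal over short distances. Porcn adds the lipid, Wls carries the ligand to the cell surface, and Frizzled receptors with Lrp5 or Lrp6 pass the signal to beta-catenin and the TCF and LEF factors. Wnt1 and Wnt3a of the dorsal neural tube are known for the induction and expansion of neural crest, Wnt6 is a ligand of the ectoderm, and Wnt5a, Wnt5b and Wnt11 are best known for signalling through Ror2, Ryk and Ptk7 that does not need beta-catenin and steers cell polarity and movement.

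Values are unique molecular identifiers (UMIs), 1 for each captured transcript, recovered from the deposited square-root values, and UMIs per 1000000 UMIs (CPM) of a library or cell class, with an exact Poisson interval of 95%. Intervals cover counting error only and leave out the spread between embryos and libraries. Depth was a little higher in KO: 9765 KO cells had a median of 1703 UMIs each, and 11958 WT cells a median of 1597. Prdm6 had 104 UMIs in WT and 59 in KO over all cells, but 1 and 3 in migrating neural crest cells (NCCs). Whether 3′ reads tell the intact from the recombined gene was not tested, and Prdm6 was not used to check the labels. Of the barcodes, 26 occurred in both libraries. The median cell of most gates held 3 of the erythroid markers in WT and 2 in KO, mostly globins, which gives the reach of free RNA.

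Cells were placed in 19 marker gates that used neither a Wnt ligand nor a Wnt pathway gene. A cell had to carry UMIs of 1 to 7 markers of a class, depending on the class, and to pass no other gate. In this way 4053 WT cells (33.9%) and 3068 KO cells (31.4%) were placed, and 17 gates held at least 50 cells in both libraries. The arch mesenchymal NCC gate held 41 WT cells and the coelomic lining gate 11 KO cells, and no ratio was formed in either. Statements on the order of gates or classes and on overlapping intervals cover, in each library, those with at least 50 cells. Olig3 and Msx3 led the dorsal neural tube gate, Sox10, Tfap2b and Foxd3 the migrating NCC gate, and Shh the floor plate gate in both libraries. In the surface ectoderm, placode and endoderm gates of both libraries, the intermediate neural tube of WT and the ventral neural tube of KO, the 10 leading genes held more markers of the shared epithelial or neural list, which these gates also required, than of the gate's own list. In the surface ectoderm gate, 57 WT and 50 KO cells passed, the median cell held 1 marker of its own list, 14 and 17 cells also passed with 1 more marker, and of its 10 leading genes 1 in WT and 0 in KO (led by Slc2a3, Mt2, Pdgfa and Foxi2) were markers of the surface ectoderm. A second assignment gave every cell to the gate whose mean expression profile it resembled most. It placed 81.4% of the gated WT cells and 80.2% of the gated KO cells in their own gate, was chosen after the data were seen, and is called the profile class.

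The ligands were sparse. All 9 together had 2796 UMIs in WT and 2738 in KO, found in 18.1% and 20.8% of the cells. Wnt5a made up most of these, with 1533 UMIs in WT and 1681 in KO, followed by Wnt4 with 462 and 413, Wnt6 with 233 and 192, Wnt1 with 228 and 209, and Wnt5b with 147 and 99. Wnt3a (73 and 53), Wnt11 (74 and 50), Wnt7b (24 and 23) and Wnt3 (22 and 18) were close to the limit of what this depth can show. The most UMIs of a ligand in any single cell was 8, for Wnt1 in KO. Among cells with a ligand UMI, 91.2% in WT and 91.1% in KO held a single kind of ligand.

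**Figure D1:**
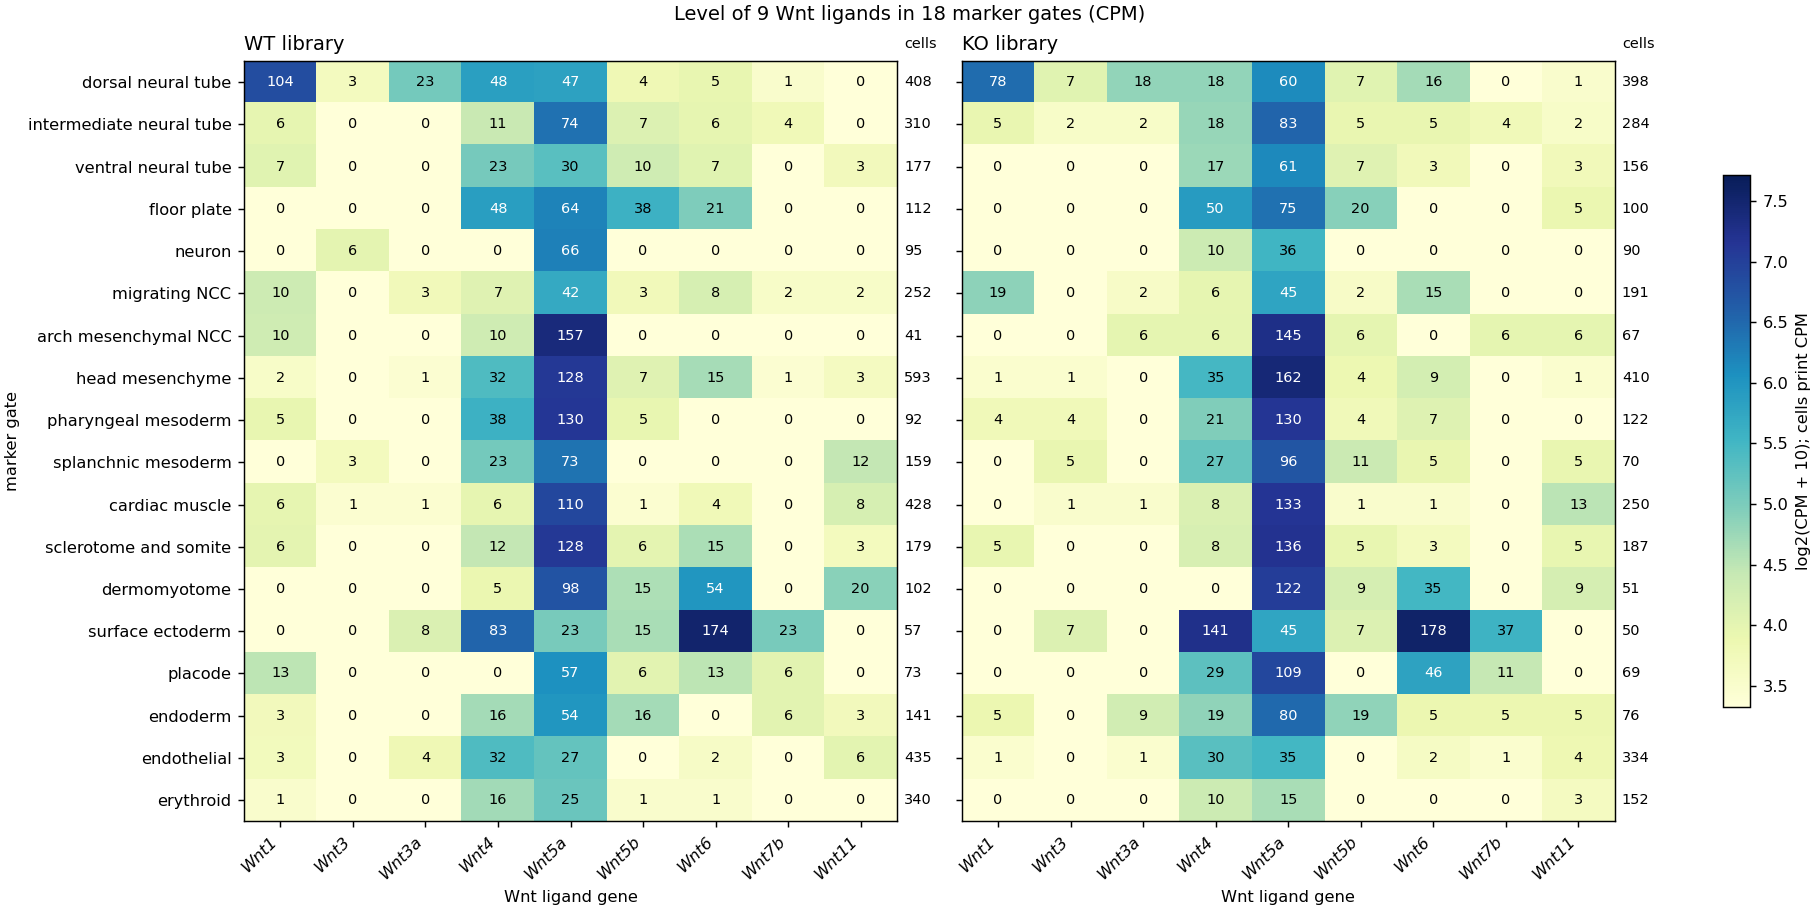
Level of each ligand (columns) in 18 marker gates (rows) of the WT and KO libraries, as UMIs per 1000000 UMIs of the gate, with the number of cells at the right; the shading is log2(CPM + 10), and the coelomic lining gate, with 11 KO cells, is not drawn. Wnt1 stands apart in the dorsal neural tube and Wnt6 in the surface ectoderm. Wnt3a (dorsal neural tube), Wnt4 and Wnt7b (surface ectoderm) and Wnt5b (floor plate) have their highest value in the same gate in both libraries, with intervals that overlap those of other gates, and Wnt5a is high in many mesenchymal and mesodermal gates.

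Wnt1, which maintains dorsal progenitors and the neural crest, was concentrated in the dorsal neural tube. In the dorsal neural tube gate it had 76 UMIs in 408 WT cells, a level of 104 CPM (82.1 to 130), and 60 UMIs in 398 KO cells, a level of 78.1 CPM (59.6 to 101). No other gate of at least 50 cells had an interval that reached this range in either library. The next gates were the placode in WT, with 2 UMIs (12.7 CPM), and migrating NCCs in KO, with 10 UMIs (18.8 CPM); migrating NCCs of WT had 6 UMIs (10.1 CPM). A Wnt1 UMI was found in 8.82% of dorsal neural tube cells in WT and 7.29% in KO, or 6.67% (4.36 to 9.68) and 4.79% (2.91 to 7.37) after each cell was thinned to 1000 UMIs. In erythroid cells, which should lack Wnt1, no cell of 337 WT and 152 KO cells had a UMI after thinning, which allows a share of up to 0.89% and 1.97%, and in endothelial cells the thinned shares were 0.234% and 0. The median depth was 1631.5 UMIs in WT and 1730 UMIs in KO for dorsal neural tube cells, and 2103 and 2540 for erythroid cells. When every cell was assigned by profile, the dorsal neural tube class held 71.9% of all Wnt1 UMIs in WT and 73.2% in KO. Its levels were lower than those of the gate, at 68.7 CPM in WT and 55.2 CPM in KO, and with 1 marker more the gate levels were higher in both libraries.

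Wnt3a, which acts with Wnt1 in the dorsal midline, followed the same pattern at a lower level. The dorsal neural tube gate had 17 UMIs in WT (23.3 CPM, 13.6 to 37.3) and 14 in KO (18.2 CPM, 9.96 to 30.6). It was the highest gate for Wnt3a in both libraries, but the intervals of 7 other gates in WT and 12 in KO overlapped with it, all of them with 4 UMIs or fewer. By profile, 54.8% of Wnt3a UMIs in WT and 56.6% in KO lay in the dorsal neural tube class. Over the 17 gates of both libraries (34 points that share libraries and depth), the gene whose log2(CPM + 10) was most like that of Wnt3a was Wnt1 (Pearson r = 0.79). For Wnt1 itself, leaving out gate markers and genes under 200 UMIs, the closest genes were Zic5 (r = 0.67) and Zic2 (r = 0.62), zinc finger factors of the dorsal neural tube.

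Within the dorsal neural tube gate, Wnt1 and Wnt3a were concentrated in cells with a UMI of Olig3, a factor of the dorsalmost progenitors and itself a marker of the gate. The split by Olig3 was singled out after its values were seen. In WT, the 113 cells with an Olig3 UMI had 50 Wnt1 UMIs (226 CPM, 168 to 298), and the 295 cells without it had 26 (51.1 CPM, 33.4 to 74.9). In KO, the 93 cells with an Olig3 UMI had 44 Wnt1 UMIs (213 CPM, 155 to 286), and the 305 cells without it had 16 (28.5 CPM, 16.3 to 46.3). The intervals of cells with and without Olig3 did not overlap in either library for Wnt1, and those of the Olig3 cells of WT and KO overlapped. Wnt3a had 12 UMIs with Olig3 (54.3 CPM) and 5 without (9.83 CPM) in WT, and 11 (53.2 CPM) and 3 (5.35 CPM) in KO. Cells with Pax3, a marker of a wider dorsal domain, separated less: Wnt1 was at 137 CPM with Pax3 and 87.2 CPM without it in WT, and at 109 and 59.1 CPM in KO, with overlapping intervals in both libraries. Lmx1a, a roof plate factor, was found in 24 WT cells, which had 11 Wnt1 UMIs, and in 11 KO cells, which had 1. The shares of dorsal neural tube cells with an Olig3 or Lmx1a UMI are counts of 2 libraries and were not tested against each other.

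**Figure D2:**
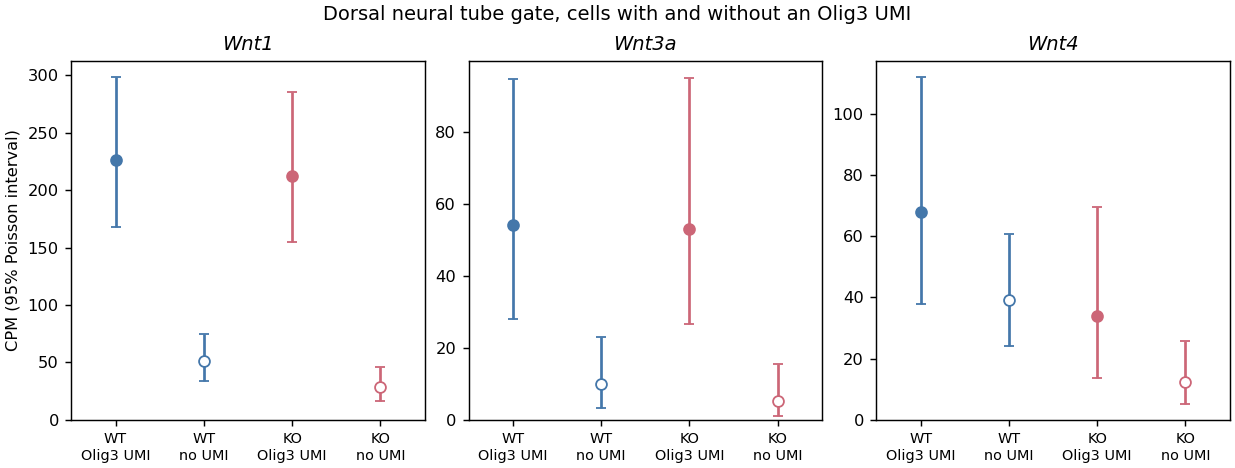
Level of Wnt1, Wnt3a and Wnt4 (UMIs per 1000000 UMIs, points, with 95% Poisson intervals) in dorsal neural tube cells with an Olig3 UMI (filled) and without it (open), in WT (blue) and KO (red). Wnt1 was at 226 and 213 CPM in the Olig3 cells of WT and KO and at 51.1 and 28.5 CPM in the others.

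Wnt3, a close relative of Wnt3a, had too few UMIs for an order of gates. The dorsal neural tube gate had 2 UMIs in WT and 5 in KO, and no other gate had more than 1. By profile, the dorsal neural tube class held 9 of 22 UMIs in WT and 8 of 18 in KO.

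Promoter windows of the RefSeq table (GRCm38.p6) were read for 7 of the 9 members, all but Wnt5a and Wnt7b. The 250 bases before the start of transcription are printed 5′ to 3′ for Wnt1 and Wnt3a, highest in the dorsal neural tube gate, and for Wnt6 and Wnt4, highest in the surface ectoderm gate. Of these, only Wnt1 and Wnt6 were set apart from every other gate in both libraries. Capitals mark GGGCGG on either strand (CCGCCC on the strand shown), a letter string bound by Sp-family factors; overlapping matches run together. Starts are those of RefSeq: for Wnt4 the start lies downstream of the gene's first base in GENCODE (chr4:137277489), so that a large part of its window is inside the GENCODE gene.
Wnt1 (chr15:98789607-98789856, plus strand): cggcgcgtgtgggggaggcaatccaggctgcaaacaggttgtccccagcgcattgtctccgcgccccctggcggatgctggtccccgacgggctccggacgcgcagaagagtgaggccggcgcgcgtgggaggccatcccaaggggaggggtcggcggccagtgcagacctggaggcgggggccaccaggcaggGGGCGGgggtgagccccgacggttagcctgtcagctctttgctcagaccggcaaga
Wnt3a (chr11:59290752-59291001, minus strand): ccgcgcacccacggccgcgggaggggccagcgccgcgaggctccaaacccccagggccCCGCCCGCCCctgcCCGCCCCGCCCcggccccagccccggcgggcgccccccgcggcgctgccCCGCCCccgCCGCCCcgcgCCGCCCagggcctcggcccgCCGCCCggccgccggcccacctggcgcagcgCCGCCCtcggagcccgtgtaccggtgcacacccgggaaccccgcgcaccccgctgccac
Wnt6 (chr1:74771642-74771891, plus strand): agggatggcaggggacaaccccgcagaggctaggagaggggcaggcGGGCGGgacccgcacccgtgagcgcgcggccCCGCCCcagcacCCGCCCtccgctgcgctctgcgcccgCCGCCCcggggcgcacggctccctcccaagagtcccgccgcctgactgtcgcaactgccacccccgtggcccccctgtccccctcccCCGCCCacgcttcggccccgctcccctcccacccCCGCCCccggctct
Wnt4 (chr4:137277385-137277634, plus strand): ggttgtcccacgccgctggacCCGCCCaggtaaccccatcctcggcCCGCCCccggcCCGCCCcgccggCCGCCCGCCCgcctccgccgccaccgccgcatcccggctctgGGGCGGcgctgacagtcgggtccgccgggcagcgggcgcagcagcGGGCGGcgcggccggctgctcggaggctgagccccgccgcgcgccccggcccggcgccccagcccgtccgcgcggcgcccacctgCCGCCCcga
All of these windows are rich in G and C, with 71.6% for Wnt1, 87.6% for Wnt3a, 79.6% for Wnt6 and 85.2% for Wnt4 against a median of 52% over 27025 windows of the table. GGGCGG was found 1 time before Wnt1, 9 times before Wnt3a, 6 times before Wnt6 and 8 times before Wnt4. It was found in the first window of all 7 members read. Of all windows, 32.9% had it at least 1 time and 16.8% had it 2 or more times. CTTTG, the core letters that TCF and LEF factors bind, was found on either strand 1 time before Wnt1, starting 20 bases before the start. It was found 0 times before Wnt3a, Wnt6 and Wnt4. The first windows of 4 of the 7 members read held it, and it occurs in 48.8% of all windows. These matches describe letters and not binding.

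Wnt6, a ligand of ectoderm known for its effect on neural crest and somite epithelium, was highest in the surface ectoderm gate. It had 23 UMIs in 57 WT cells (174 CPM, 110 to 261) and 24 in 50 KO cells (178 CPM, 114 to 265). No other gate of at least 50 cells had an interval that reached this range in either library. The next gate in WT was the dermomyotome, with 11 UMIs (53.8 CPM), which had 4 UMIs in KO (34.8 CPM), and in KO the placode, with 8 UMIs (45.8 CPM), which had 2 in WT (12.7 CPM). A Wnt6 UMI was found in 26.3% of surface ectoderm cells in WT and 40% in KO, or 14% (6.26 to 25.8) and 22% (11.5 to 36) after thinning, and in 0 of the thinned erythroid cells. In the larger profile classes the pattern was the same: the 197 WT and 200 KO surface ectoderm cells held 75 and 79 UMIs (196 and 170 CPM), and the dermomyotome class held 40 and 16 (50.5 and 37.7 CPM). The Wnt6 level of the surface ectoderm gate depended on the gate settings. It was higher in WT with 1 marker more or 1 fewer, and in KO with gates on thinned UMIs. The genes closest to Wnt6 in pattern were Sostdc1 (r = 0.82), a secreted BMP and Wnt antagonist, and Foxi2 (r = 0.74), a forkhead factor of the ectoderm.

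Wnt7b had 3 UMIs in the surface ectoderm gate of WT (22.7 CPM) and 5 in that of KO (37.1 CPM), and at most 2 in any other gate. By profile it had 8 UMIs in the surface ectoderm class of each library, 33.3% of its UMIs in WT and 34.8% in KO. The closest genes in pattern were Fermt1 (r = 0.89), an epithelial adhesion protein, and again Sostdc1 (r = 0.88), but the 47 UMIs of Wnt7b make its pattern a weak guide. No thinned surface ectoderm cell of the gate had a Wnt7b UMI, so its share of cells was not detectable at this depth.

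Wnt4, known for its part in kidney, gonad and spinal cord, was found in more classes than Wnt6 and Wnt7b. The surface ectoderm gate was highest in both libraries, with 11 UMIs in WT (83.1 CPM, 41.5 to 149) and 19 in KO (141 CPM, 84.8 to 220). The floor plate followed with 9 and 10 UMIs (48.3 and 49.7 CPM). Head mesenchyme had 37 and 31 UMIs (31.8 and 34.6 CPM), and endothelial cells had 31 and 27 (31.9 and 29.7 CPM). The erythroid gate, which gives the level of free RNA, had 12 and 4 UMIs (16.1 and 10.2 CPM). Of the gates with at least 50 cells, 8 in WT and 1 in KO had intervals that overlapped with that of the surface ectoderm. By profile the surface ectoderm class stood at 86.1 CPM (59.3 to 121) in WT and 117 CPM (87.5 to 152) in KO, and of the classes with at least 50 cells only the floor plate overlapped with it. The head mesenchyme class held 27.3% of all Wnt4 UMIs in WT and 21.3% in KO, and the surface ectoderm class 7.14% and 13.1%. Emp1 (r = 0.77), an epithelial membrane protein, and Tm9sf3 (r = 0.70) were the genes closest to Wnt4 in pattern.

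**Figure D3:**
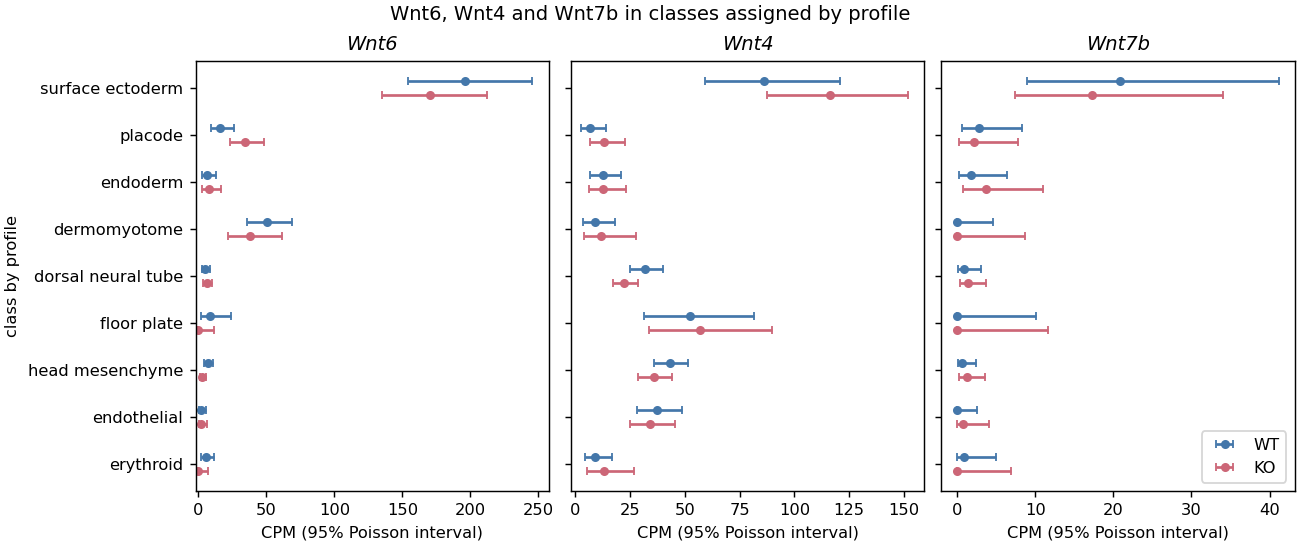
Level of Wnt6, Wnt4 and Wnt7b (UMIs per 1000000 UMIs, points, with 95% Poisson intervals) in 9 profile classes of the WT (blue) and KO (red) libraries. All 3 were highest in the surface ectoderm class in both libraries, Wnt6 at 196 and 170 CPM, Wnt4 at 86.1 and 117 CPM and Wnt7b at 20.9 and 17.2 CPM.

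Wnt5a, a ligand of growing mesenchyme that steers outgrowth and polarity, was broad and highest in mesodermal and mesenchymal cells. In WT the pharyngeal mesoderm gate was at 130 CPM (24 UMIs), the sclerotome and somite gate at 128 CPM (43 UMIs), head mesenchyme at 128 CPM (149 UMIs) and cardiac muscle at 110 CPM (118 UMIs). In KO the same gates were at 130 CPM (37 UMIs), 136 CPM (50 UMIs), 162 CPM (145 UMIs) and 133 CPM (104 UMIs). Arch mesenchymal NCCs, which form the skeleton and connective tissue of the arches, were at 157 CPM in WT (16 UMIs) and 145 CPM in KO (25 UMIs). These values did not form an order: among gates of at least 50 cells, which leaves out the WT arch mesenchymal NCCs, 11 in WT overlapped with the pharyngeal mesoderm and 7 in KO with head mesenchyme, the highest of each library. Migrating NCCs were lower, at 42.0 CPM (25 UMIs) for WT and 45.2 CPM (24 UMIs) for KO. Not every mesodermal gate was above the epithelial and neural ones. Splanchnic mesoderm was at 73.3 CPM in WT and 95.6 CPM in KO, the placode at 57.0 and 108.7 CPM, and the intermediate neural tube at 74.2 and 83.5 CPM. The erythroid gate had 19 and 6 UMIs (25.5 and 15.3 CPM), and the endothelial gate 26 and 32 (26.7 and 35.2 CPM). After thinning, a Wnt5a UMI was found in 9.57% (7.29 to 12.3) of head mesenchyme cells in WT and 13.7% (10.5 to 17.4) in KO, against 2.67% and 2.63% of erythroid cells, so part of its UMIs in any class can be free RNA. Before thinning the head mesenchyme shares were 18.9% and 26.6%. Vcan (r = 0.86), a matrix proteoglycan, and Prrx2 (r = 0.79), a homeobox factor of mesenchyme, were closest to Wnt5a in pattern.

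Wnt5b, a relative of Wnt5a, was highest in the floor plate, with 7 UMIs in WT (37.6 CPM, 15.1 to 77.4) and 4 in KO (19.9 CPM, 5.41 to 50.9). The endoderm was second in both, with 5 and 4 UMIs (15.9 and 18.8 CPM), and 10 gates in WT and 16 in KO overlapped with the floor plate. No cell of the endothelial gate had a Wnt5b UMI in either library, and the endothelial profile class had 2 in WT and 1 in KO. Its closest genes in pattern were Tyro3 (r = 0.79), a receptor tyrosine kinase, and Sulf1 (r = 0.77), a heparan sulfate editing enzyme. Wnt11, known in heart and muscle morphogenesis, was highest in the dermomyotome in WT (4 UMIs, 19.6 CPM) and in cardiac muscle in KO (10 UMIs, 12.8 CPM). Cardiac muscle of WT had 9 Wnt11 UMIs (8.38 CPM), and 15 gates in WT and 17 in KO overlapped with the highest, so no order is read. By profile, cardiac muscle held 17.6% of Wnt11 UMIs in WT and 32% in KO. Its closest genes in pattern were Vdac1 (r = 0.68), a mitochondrial channel, and Fitm1 (r = 0.68), a lipid droplet protein of muscle, and those of Wnt3 were Shank1 (r = 0.67) and Msx1 (r = 0.60), the latter a homeobox factor of the neural crest; the 40 UMIs of Wnt3 make its pattern a weak guide.

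Cells with more than 1 kind of ligand were rare. In the dorsal neural tube profile class, 13 of 94 WT cells with a Wnt1 UMI also had a Wnt3a UMI (13.8%, 7.57 to 22.5), against 1.36% of the cells without Wnt1. In KO it was 12 of 89 (13.5%, 7.17 to 22.4) against 0.979%. Cells with Wnt1 were deeper than the others, with medians of 1820 against 1140 UMIs in WT and 2224 against 1320.5 in KO. After thinning to 1000 UMIs, 4 of 63 WT cells (6.35%, 1.76 to 15.5) and 3 of 62 KO cells (4.84%, 1.01 to 13.5) with Wnt1 had Wnt3a, against 1.17% (0.654 to 1.92) and 0.584% (0.28 to 1.07) of the others, so that at matched depth the intervals overlapped in both libraries. Wnt3a and Wnt4 were found together in 12 of 36 WT cells with Wnt3a (33.3%, 18.6 to 51.0), against 3.53% (2.72 to 4.51) of those without it, and in 2 of 29 KO cells (6.9%, 0.846 to 22.8), against 3.17%. After thinning it was 3 of 19 WT cells (15.8%, 3.38 to 39.6) against 2.18% (1.46 to 3.11), intervals that stayed apart, and 0 of 13 KO cells, which allows a share of up to 23.1%, against 2.04%. In the surface ectoderm class, Wnt6 was found in 11 of 28 WT cells with Wnt4 (39.3%) and in 26% of those without it, and in 11 of 39 (28.2%) and 30.4% in KO, with overlapping intervals in both libraries.

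To compare the genotypes, the ratio of KO over WT was formed over all cells, with an exact conditional interval. Wnt5a was higher in KO, at 88.8 CPM (84.6 to 93.1) against 73.8 CPM (70.1 to 77.6) in WT, a log2 ratio of 0.27 (0.17 to 0.37). Wnt5b was lower, at 5.23 CPM (4.25 to 6.36) against 7.07 CPM (5.98 to 8.31), a log2 ratio of -0.44 (-0.82 to -0.06). The other members had intervals that held 0. Wnt1 stood at 11.0 CPM in both libraries (0.01, -0.27 to 0.29), Wnt4 at 22.2 CPM in WT and 21.8 CPM in KO (-0.03, -0.22 to 0.17), and Wnt6 at 11.2 and 10.1 CPM (-0.14, -0.43 to 0.14). For the 4 sparse members the ratios were -0.33 for Wnt3a (-0.87 to 0.20), -0.43 for Wnt11 (-0.98 to 0.11), 0.07 for Wnt7b (-0.82 to 0.96) and -0.15 for Wnt3 (-1.14 to 0.81), and the intervals of Wnt3 and Wnt7b hold a 1.5-fold ratio in either direction. Of the 5 members with at least 200 UMIs, 0 passed a 1.5-fold ratio, against 2.39% of the 10513 genes with that many UMIs. The counting interval missed 0 for 2 of the 5, which is not unusual here, since it missed 0 for 45.9% of the same genes. The ratio of Wnt5a was above that of 93.8% of these genes and the ratio of Wnt5b above that of 4.97%, around a median of -0.06. The libraries also differed in make-up. By profile, head mesenchyme, where Wnt5a was high, made up 13.3% of WT and 12.1% of KO cells, and the dermomyotome 3.23% and 1.85%. The dorsal neural tube class, where Wnt1 was high, made up 15.0% and 18.7%, and the intermediate neural tube 13.2% and 18.5%. Within the dorsal neural tube class Wnt1 was at 68.7 CPM in WT and 55.2 CPM in KO, a log2 ratio of -0.32 (-0.64 to 0.01). The part of the make-up in the ratios over all cells was not tested.

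**Figure D4:**
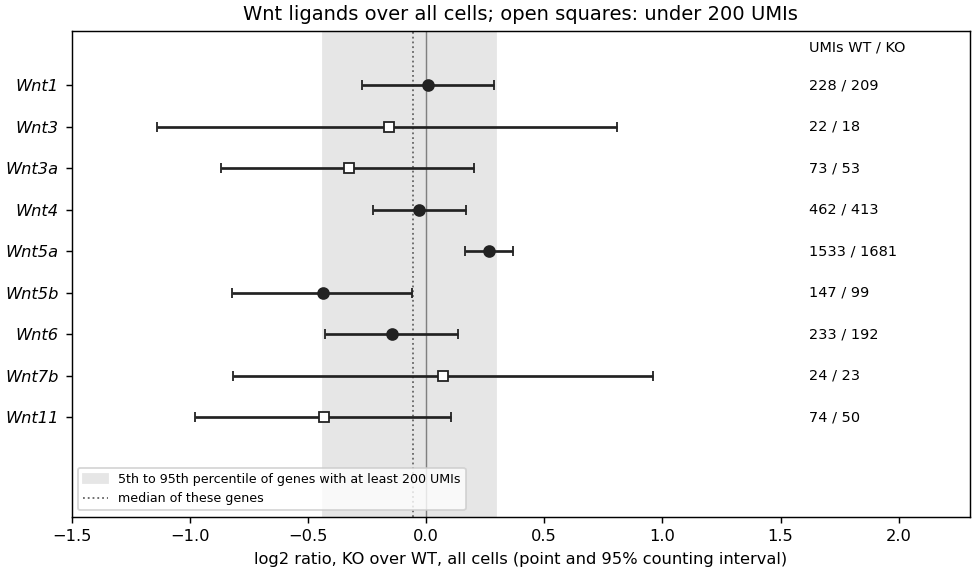
Log2 ratio of KO over WT over all cells for each ligand (points, with 95% counting intervals) and the UMIs of each library; the grey band holds the middle 90% of the 10513 genes with at least 200 UMIs and the dotted line is their median. Wnt5a (0.27) lies near the upper edge of the band and Wnt5b (-0.44) near the lower.

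Within the gates, 23 pairs of a ligand and a gate had at least 20 UMIs, and 6 of them passed a 1.5-fold ratio (3 higher and 3 lower in KO), against 19.6% of all gene and gate pairs with that many UMIs. The counting interval missed 0 in 1 of the 23, Wnt4 in the dorsal neural tube, against 9.99% of all pairs. Wnt4 had 35 UMIs in the WT dorsal neural tube gate (48.0 CPM) and 14 in the KO gate (18.2 CPM), which is -1.40 on the log2 scale (-2.40 to -0.46). This ligand was lower in KO among cells with an Olig3 UMI (67.9 CPM in WT and 33.8 in KO) and among those without (39.3 and 12.5 CPM), and the intervals of each pair overlapped. Of the splits by the other markers of the gate, that by Pax3 is given after its values were seen: among cells with a Pax3 UMI Wnt4 stood at 84.6 CPM (52.4 to 129) in WT and 23.8 CPM (9.55 to 48.9) in KO, intervals that did not overlap, and among those without Pax3 at 29.1 and 14.8 CPM, with overlapping intervals. The WT and KO intervals also overlapped among cells with Msx3 (51.5 and 20.6 CPM) and with Zic1 (55.4 and 25.5 CPM). They did not overlap among cells without a UMI of Pax7 (47.8 and 18.35 CPM), of Lmx1a (48.9 and 18.8 CPM) or of Atoh1 (47.0 and 18.37 CPM). Each of these sets is nearly the whole gate. In the larger profile class the ratio was smaller, with 76 UMIs in 1791 WT cells (31.8 CPM) and 62 in 1825 KO cells (22.4 CPM), a log2 ratio of -0.51 (-1.02 to -0.01). The erythroid gate, for comparison, had Wnt4 levels of 16.1 CPM in WT and 10.2 CPM in KO.

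In the surface ectoderm gate the Wnt4 level was 83.1 CPM in WT against 141 for KO, a ratio of 0.76 (-0.38 to 1.98), and Wnt6 had a ratio of 0.04 (-0.85 to 0.92). Cells of the KO gate were deeper, with a median of 2724 UMIs against 2156. Wnt1 and Wnt3a in the dorsal neural tube gate had ratios of -0.42 (-0.93 to 0.09) and -0.35 (-1.49 to 0.75). Wnt6 in head mesenchyme, at 15.5 CPM in WT and 8.92 in KO, had a ratio of -0.79 (-2.20 to 0.48), which turned to 2.38 on 1 and 5 UMIs with 1 marker more.

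Wnt5a could be compared in 15 gates and was higher in KO in 14 of them, with a median log2 ratio of 0.32. The exception was the erythroid gate, at -0.74 (-2.35 to 0.64), and the highest was the ventral neural tube, at 1.03 (-0.20 to 2.37). The count depends on the gates: in the same 15 classes it was 10 with 1 marker fewer, which turned the ventral neural tube to -0.35 and migrating NCCs to -0.87, 12 with 1 marker more, 11 with gates on thinned UMIs, 11 with every cell weighted alike and 13 by profile. No gate alone had an interval that missed 0. Head mesenchyme was closest, at 0.34 (-0.003 to 0.677). The gates share the same pair of libraries and are not replicates. Of the 2920 genes with at least 20 UMIs in each of these 15 gates, 7.12% were higher in KO in 14 or more. By profile, Wnt5a was higher in KO in 15 of 18 classes, and the interval missed 0 in head mesenchyme (0.31, 0.11 to 0.50), splanchnic mesoderm (0.63, 0.17 to 1.09), dermomyotome (0.95, 0.42 to 1.47) and endoderm (1.06, 0.47 to 1.67). Over the profile classes, 11 of 44 pairs of a ligand and a class passed 1.5-fold, against 15.4% of all pairs, and the interval missed 0 in 7, against 12.7%.

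**Figure D5:**
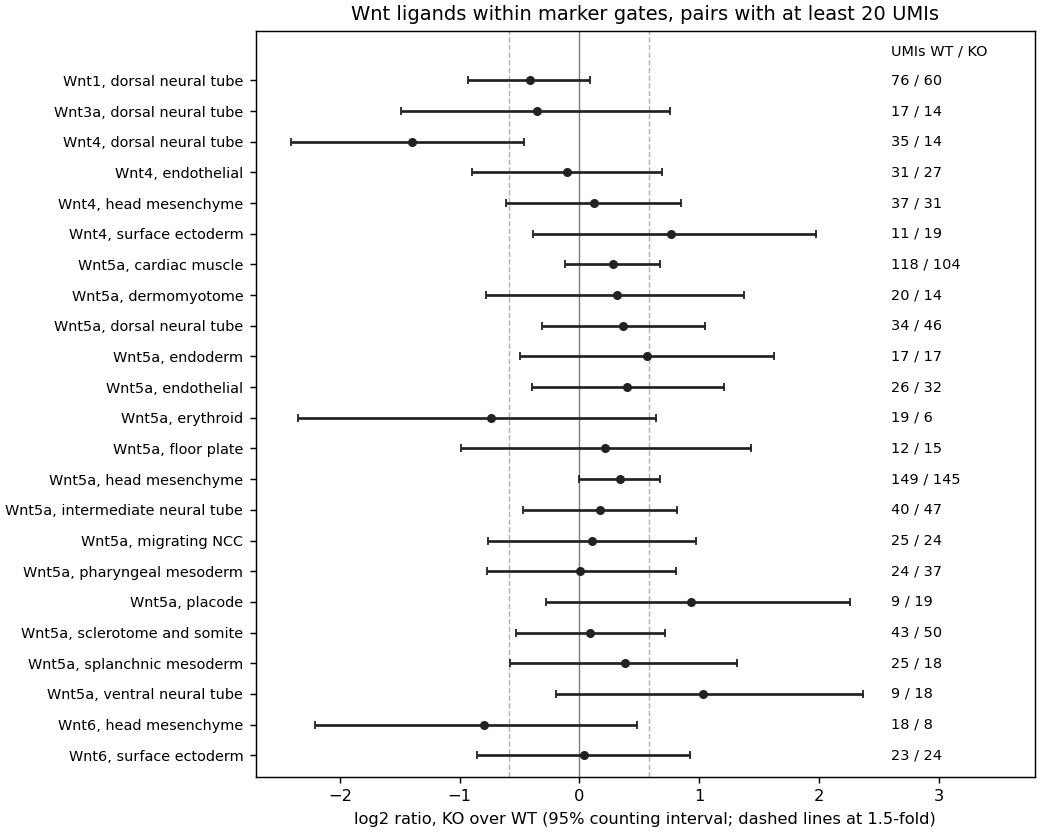
Log2 ratio of KO over WT for the 23 pairs of a ligand and a marker gate with at least 20 UMIs (points, with 95% counting intervals) and the UMIs of each library; dashed lines mark a 1.5-fold ratio. The interval misses 0 for Wnt4 in the dorsal neural tube alone, and 14 of the 15 Wnt5a points lie above 0, a count that is 10 when the gates need 1 marker fewer.

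Of the other genes of the pathway, 2 of 35 with at least 200 UMIs passed 1.5-fold over all cells, both lower in KO, against 2.39% of all genes. Among the receptors, 1 of 14 passed: Ptk7, a co-receptor of polarity signalling, was at 173 CPM in WT (3603 UMIs) and 73.4 CPM in KO (1390 UMIs), which is -1.24 on the log2 scale (-1.33 to -1.15). Ptk7 was lower in KO in each of the 16 gates where it had at least 20 UMIs, cardiac muscle and endothelial cells included, with log2 ratios from -1.95 to -0.70. The receptors with most UMIs over both libraries together, Fzd2 and Fzd3, had ratios of -0.18 (-0.25 to -0.12) and 0.39 (0.32 to 0.46). Among the secreted antagonists, 1 of 7 passed: Sfrp5 was at 18.9 CPM in WT (392 UMIs) and 7.45 CPM in KO (141 UMIs), a log2 ratio of -1.34 (-1.63 to -1.06), with the interval below 0 in 1 of the 4 gates where it could be compared. The most abundant antagonists, Sfrp2 and Sfrp1, had ratios of -0.17 and -0.12. For ligand secretion, Wls had 2417 UMIs in WT and 2019 in KO (-0.12, -0.21 to -0.04), and Porcn had 84 and 98 (0.36, -0.08 to 0.79). No gene of the R-spondin branch (4 compared) or of the feedback targets and TCF factors (8 compared) passed. Lgr4 and Znrf3, the most abundant of the R-spondin branch, had ratios of 0.04 and -0.39, and Tcf7l2 and Tcf7l1 ratios of -0.23 and 0.00. Axin2, a target of beta-catenin signalling, had 1463 UMIs in WT and 1415 in KO (0.09, -0.02 to 0.19). Among the 8 feedback targets and TCF factors compared, the counting interval lay below 0 for 4 and above 0 for 1. Those below 0 were Tcf7l2, Sp5 (-0.40, -0.72 to -0.09), Nkd1 (-0.28, -0.46 to -0.10) and Nkd2 (-0.28, -0.53 to -0.04). Tcf7 lay above 0 (0.31, 0.18 to 0.44). The interval missed 0 for 45.9% of all genes with at least 200 UMIs. Of the other Wnt ligands, Wnt2 was the only one with at least 200 UMIs, at 24.7 CPM in WT and 17.5 in KO (-0.50, -0.70 to -0.30), and Wnt7a had 88 and 79 UMIs.

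Several members have a second Wnt gene beside them in the genome, and these neighbours had few UMIs. Wnt1 (chr15:98789857-98793837) lies 11.7 kb from Wnt10b, Wnt6 (chr1:74771892-74785322) 6.19 kb from Wnt10a, Wnt3a (chr11:59248033-59290752) 16.2 kb from Wnt9a, and Wnt3 (chr11:103774150-103817957) 24.3 kb from Wnt9b (GRCm38, GENCODE vM21). Wnt10b had 8 UMIs in WT and 2 in KO, Wnt10a 3 in each library, Wnt9a 18 and 20, and Wnt9b 11 and 19, where Wnt3 itself had 22 and 18. Wnt6 had 233 UMIs in WT where its neighbour on the same strand had 3. The other members lie at chr14:28504750-28527448 (Wnt5a), chr6:119432531-119544347 (Wnt5b), chr4:137277489-137299726 (Wnt4), chr15:85535437-85582473 (Wnt7b) and chr7:98835112-98855195 (Wnt11). Genes annotated on the opposite strand overlap Wnt5a, Wnt5b, Wnt6, Wnt7b and Wnt11, and no gene overlaps any of the 9 on its own strand.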

How the data were processed

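Single cells of 1 WT and 1 KO library, pooled by MULTI-Seq barcodes, were sequenced as 3′ libraries. The authors' processing notes name Cell Ranger 1.3.1, Scanpy and the build mm10. Per the methods, the authors removed cells under 200 or over 6000 UMIs, cells under 200 genes, genes in fewer than 3 cells, and mitochondrial and ribosomal UMIs, then scaled each cell to a common total and took square roots, and this signal was deposited. Squaring each value and dividing by the cell's smallest nonzero square gave whole UMIs for 100% of values within 0.01. Totals were 20781384 UMIs (WT) and 18936857 (KO), at 533 to 4464 and 828 to 4588 per cell. 0 columns belonged to no sample.

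With 1 library per genotype there is no test: levels have exact Poisson, shares Clopper-Pearson and ratios exact conditional intervals of 95%, and a share of 0 allows 3 counts. Over all cells, ratios are given for every member and named gene, and counts of genes past 1.5-fold cover those with at least 200 UMIs over both libraries. Within gates of at least 50 cells in both, ratios were formed from 20 UMIs. Cells in several gates (6.39% of WT, 6.01% of KO), where doublets would lie, were left out. Per the methods the authors had removed doublets with DoubletFinder and a depth threshold, and no further doublet caller was run here. Thinning to 1000 UMIs left out 1361 WT and 125 KO cells. Marker lists for macrophages and megakaryocytes, smooth muscle, nephric cells and notochord formed no gate of their own. All members were named, with the 2 most abundant genes of each pathway list and those past 1.5-fold. Axin2, Tcf7, Sp5, Nkd1 and Nkd2 were named after their values were seen. The members and lists were chosen with earlier results of these data known. Other scalings, cell sets and gates were tried. Python 3.11.15, numpy 2.4.6, scipy 1.17.1 and pandas 2.3.3 were used, and the calculations were tested on simulated data.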

Additional observations from a re-analysis of the deposited data

Results flagged for a closer look

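In the profile classes, which were chosen after the data were seen, Wnt6 differed between KO and WT in opposite directions. It was higher in the placode class of KO, at 34.3 CPM (32 UMIs) against 16.2 CPM (17 UMIs) for WT, which is 1.08 on the log2 scale (0.19 to 2.02). Cells of the KO placode class were deeper, with a median of 2513.5 UMIs against 2087.5. After thinning, 2.7% (1.3 to 4.91) of them in KO and 2.1% (1.01 to 3.82) in WT had a Wnt6 UMI, with overlapping intervals. In head mesenchyme Wnt6 was lower in KO, at 2.44 CPM (6 UMIs) against 6.85 CPM (20 UMIs) for WT, which is -1.49 on the log2 scale (-3.09 to -0.12). The erythroid class, which gives the level of free RNA, had 6 Wnt6 UMIs in WT (5.37 CPM, 1.97 to 11.7) and 0 in KO. Its WT interval overlapped that of WT head mesenchyme (4.19 to 10.6). In the head mesenchyme gate the ratio was -0.79 (-2.20 to 0.48), and 2.38 on 1 and 5 UMIs when 1 marker more was needed. The placode and head mesenchyme classes are 2 of the 7 of 44 pairs of a ligand and a class whose counting interval missed 0, against 12.7% of all gene and class pairs. Each counting interval misses 0 on its own side, but the difference between the classes was not tested, since each genotype is 1 library.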

How the results depend on the processing

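No paired analysis was possible because each genotype is 1 library and no result comes from a test. Over all cells, 62 of 63 alternative ratios lay inside the counting interval of the reported value, and 49 kept its sign; Wnt5a ran from 0.18 to 0.33 and Wnt5b from -0.64 to -0.21 (log2). The exception was Wnt3, at 1.36 among gated cells alone. The share of genes past 1.5-fold was 4.9% from 50 UMIs and 18.2% with no minimum.

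Within gates, 149 of 161 alternative ratios lay inside the interval and 136 kept the sign, and Wnt4 in the dorsal neural tube ran from -1.96 to -0.51. With 1 marker more, Wnt5a was at 2.15 in the intermediate and 2.91 in the ventral neural tube, 1.47 in splanchnic mesoderm and 1.10 in head mesenchyme, and Wnt6 at 2.38 in head mesenchyme. With 1 fewer, Wnt4 was at -1.10 in endothelial cells, and Wnt5a at -0.87 in migrating NCCs, -0.35 in the ventral neural tube and 1.46 in the floor plate. Gating on thinned UMIs gave Wnt5a -0.72 in sclerotome and somite and 0.69 in head mesenchyme (0.34 as reported), and Wnt4 -1.73 in head mesenchyme. The cause was not tested.

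Levels kept within the interval in 39 of 50 alternatives. With 1 marker more, Wnt1 in the dorsal neural tube stood at 168 CPM (WT) and 115 CPM (KO), Wnt3a in KO at 33.4, and Wnt6 in WT surface ectoderm at 274. With 1 fewer, Wnt1 in KO was at 116, Wnt6 in WT at 330.2, and Wnt5a in WT pharyngeal mesoderm at 79.5. By profile, Wnt1 was at 68.7 in WT and 55.2 in KO, and Wnt5a in KO pharyngeal mesoderm at 181. Gating on thinned UMIs gave Wnt6 289 CPM in KO surface ectoderm. Depth limits Wnt3, Wnt7b, Wnt3a and Wnt11 most.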

Other observations

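Among the Wnt ligands outside the 9, Wnt2, a ligand of the splanchnic mesoderm and heart, was the most abundant. By profile its splanchnic mesoderm level was 105 CPM in WT (121 UMIs, 87.6 to 126) and 65.4 in KO (46 UMIs, 47.9 to 87.2), and cardiac muscle was at 61.3 and 48.9 CPM. The coelomic lining class was at 94.9 CPM in WT (29 UMIs in 141 cells) and at 157.5 CPM in KO (11 UMIs in 27 cells). Wnt16 was highest in the WT dermomyotome class, with 11 UMIs (13.9 CPM). Wnt9b, the neighbour of Wnt3, had 5 of its 11 UMIs in WT and 7 of 19 in KO in the placode class. Wnt10b, the neighbour of Wnt1, had 5 of its 8 WT UMIs in the surface ectoderm class.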
